A study of Mus musculus with 18 samples.

Results

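The 9 genes described here, Rgs2, Depp1, Slc29a1, Trarg1, Nabp1, Dvl2, Klf10, Hipk3 and Trim3, are mouse genes that act in signalling, transport or gene regulation. They were chosen by their adjusted p in the comparison of maternal diets at weaning, so the weaned diet values below are a description and carry no test. They are 9 of the 38 genes that passed the threshold in that comparison, of 14366 genes tested and 55416 genes in the deposited files. The genes were followed in interscapular brown fat, the heat-producing fat depot between the shoulder blades, of C57BL/6 offspring, and the mothers were fed either a control diet or fish oil while pregnant and lactating. Offspring were sampled as fetuses, at weaning at 3 weeks of age, or as adults of 15 weeks, and the adults of both maternal diets had been given high fat food for their last 8 weeks. Each of the 6 groups of age and maternal diet has 3 RNA sequencing libraries. The labels do not say whether libraries came from separate litters or whether fetal samples were pools, so p-values measure the spread between these libraries. The question for the 9 genes was whether the diet difference at weaning was also present before birth and in adults.

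Brown fat burns lipid and glucose to make heat, and noradrenaline from sympathetic nerves drives it through G protein-coupled receptors and cyclic AMP. Insulin acts beside that signal by moving the glucose transporter GLUT4 to the cell surface and by keeping FOXO transcription factors out of the nucleus. Several of the 9 genes sit on these routes: Rgs2 switches off G proteins, Trarg1 takes part in GLUT4 traffic, and Depp1 is a gene induced by FOXO factors. Dvl2 relays Wnt signals, Klf10 is a transcription factor induced early by TGF-beta, and Hipk3 and Trim3 are a nuclear kinase and a ubiquitin ligase. Slc29a1 carries adenosine and other nucleosides across the cell membrane, and Nabp1 is a single-strand DNA binding protein of the SOSS complex that takes part in DNA repair.

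The libraries held 7889595 to 17943071 forward-strand counts. Mitochondrial rRNA (mt-Rnr2) made up 43.35 to 61.0% of them. In the weaned libraries that share was 58.36 to 61.0% with the control diet and 53.12 to 54.92% with fish oil. The other mitochondrial rRNA, mt-Rnr1, made up 3.99 to 5.18% and 4.91 to 8.03% there. In a fit with both left out, 40 genes passed for weaned diet, beside 38 with them, and the 9 chosen genes were still among them. The part of mitochondrial rRNA in the weaned values was not tested further. Brown adipocyte markers were listed in all groups, with none of 15 at 0 in every library. Their summed level was 3150 to 3817 CPM (counts scaled to the library's TMM-adjusted total) in fetal control, 2283 to 2811 in fetal fish oil and at least 3993 in each weaned or adult library. Xist, the RNA of the inactive X chromosome, was abundant, at 139 to 329 CPM, in 2 fetal libraries of each diet and at most 6.25 CPM in the other 14. All 18 libraries held the Y-linked gene Ddx3y at 34.4 CPM or more. The 4 fetal libraries with abundant Xist thus held both RNAs, and whether each pooled fetuses of both sexes was not tested. The source name and the title of adult fish oil replicate 2 give different replicate numbers, and the title was used.

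Promoter sequence was available as a single RefSeq window for 5 of the 9 genes, in build GRCm38.p6, which is not a build named for the deposited counts. Slc29a1 had several windows and is left out, and Trarg1, Klf10 and Trim3 are named only. The 250 bases before the start are shown for 4 genes, because they differ in the motifs they hold while their genes stood on both sides of the diet difference at weaning. They come from chr1:144004150-144004399 on the minus strand for Rgs2, chr6:116650434-116650683 on the plus strand for Depp1, chr1:51478400-51478649 on the minus strand for Nabp1 and chr11:70000342-70000591 on the plus strand for Dvl2. Each is written 5′ to 3′ along the gene. Capitals mark matches on either strand to 8 motifs, and a short motif inside a longer one is marked together with it. They are the E-box CACGTG, the full cyclic AMP element TGACGTCA, the short form of that element with the letters TGACG, and a FOXO type site spelled TGTTTAC. The others are the core of a glucocorticoid site spelled AGAACA, a GC box spelled GGGCGG, the promoter element known as the CCAAT box, and a TATA element spelled TATAAA.
Rgs2: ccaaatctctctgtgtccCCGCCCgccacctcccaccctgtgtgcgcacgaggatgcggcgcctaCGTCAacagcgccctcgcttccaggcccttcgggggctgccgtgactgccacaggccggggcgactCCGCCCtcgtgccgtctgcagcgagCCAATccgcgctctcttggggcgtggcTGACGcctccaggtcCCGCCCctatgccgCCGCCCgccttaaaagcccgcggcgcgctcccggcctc
Depp1: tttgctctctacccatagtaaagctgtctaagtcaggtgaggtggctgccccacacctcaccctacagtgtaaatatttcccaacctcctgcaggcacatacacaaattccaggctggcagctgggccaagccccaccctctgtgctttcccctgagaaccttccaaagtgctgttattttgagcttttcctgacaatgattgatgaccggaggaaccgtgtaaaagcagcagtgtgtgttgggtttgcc
Nabp1: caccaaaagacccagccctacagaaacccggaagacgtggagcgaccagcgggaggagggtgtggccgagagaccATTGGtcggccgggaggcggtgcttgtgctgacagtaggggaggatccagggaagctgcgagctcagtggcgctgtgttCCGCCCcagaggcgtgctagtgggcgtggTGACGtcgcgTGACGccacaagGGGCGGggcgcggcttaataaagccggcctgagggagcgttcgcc
Dvl2: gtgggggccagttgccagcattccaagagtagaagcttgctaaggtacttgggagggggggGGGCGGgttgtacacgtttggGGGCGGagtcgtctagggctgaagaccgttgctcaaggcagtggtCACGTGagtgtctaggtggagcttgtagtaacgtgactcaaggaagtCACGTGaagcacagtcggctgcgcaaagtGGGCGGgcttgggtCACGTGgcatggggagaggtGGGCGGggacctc
Rgs2 and Nabp1, which stood lower and higher with fish oil at weaning, each held 2 short cyclic AMP elements. Of the 32851 windows of this length, 17.8% hold any of these elements and 0.688% hold 3 or more. Hipk3 also held 2 of them (chr2:104494490-104494739, minus strand). Dvl2 held 3 E-boxes, of which 6.02% of all windows held any and 0.0609% held 3 or more. GC boxes numbered 4 each in Rgs2 and Dvl2 and 2 each in Nabp1 and Hipk3. Of all windows 32.7% held any GC box and 8.47% held 3 or more. Depp1 held none of the 8 motifs, and none of the 5 windows held the FOXO type letters TGTTTAC, which occur in 3.17% of all windows. Other spellings of a FOXO site were not searched, so their absence is not shown. These are matches of letters in a short window and say nothing of binding.

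Rgs2 encodes a regulator of G protein signalling that speeds the shut-off of Gq-coupled receptors. In the fetal libraries it stood at 191, 202 and 172 CPM with the control diet and at 185, 231 and 224 CPM with fish oil, so the diets overlapped. At weaning the control libraries had 103, 80.2 and 47.0 CPM and the fish oil libraries 7.51, 12.3 and 28.9 CPM. The weaned fish oil mean was 0.212 times the control mean, and all 3 fish oil libraries lay below all 3 control libraries. In adults the values were 33.9, 28.1 and 45.3 CPM against 17.3, 19.3 and 35.7 CPM, which overlap. The adult log2 fold change was -0.56 ± 0.38 (SE; edgeR adjusted p = 0.898). Without the filter on low counts the adult difference of Rgs2 passed in edgeR at -0.58 ± 0.15 (adjusted p = 0.00919), beside 546 of all genes. The log2 value hardly moved there and the SE was smaller.

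Depp1, a gene induced by fasting and FOXO factors, showed the widest spread of the 9 among weaned controls relative to the mean, at 61.4, 33.8 and 14.9 CPM. The weaned fish oil libraries had 11.1, 3.77 and 8.88 CPM, and their mean was 0.215 times that of the controls. The lowest control library was close to the highest fish oil library. Fetal values were 41.5, 40.4 and 31.2 CPM with the control diet and 19.4, 31.7 and 31.2 CPM with fish oil. In adults they were 7.72, 9.00 and 10.9 CPM against 6.39, 4.48 and 2.52 CPM. The adult groups did not overlap, with fish oil lower as at weaning, and the log2 fold change was -1.04 ± 0.49 (edgeR adjusted p = 0.731). As for Rgs2, the adult difference of Depp1 passed only without the low-count filter (-1.06 ± 0.20, edgeR adjusted p = 2.1e-05), beside 546 of all genes.

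Slc29a1 is the equilibrative nucleoside transporter ENT1, which moves adenosine down its gradient. At weaning it stood at 16.4, 17.2 and 24.9 CPM in control and 7.59, 7.93 and 9.28 CPM in fish oil libraries, with no overlap. Fetal levels were 15.7, 14.0 and 12.6 CPM against 11.0, 9.90 and 11.0 CPM, also without overlap. The fetal log2 fold change was -0.40 ± 0.18 (edgeR adjusted p = 0.738), and the adjusted p was 0.0584 when the fetal libraries were fitted alone. Adult values overlapped, at 16.1, 19.8 and 18.7 CPM against 13.6, 11.8 and 18.3 CPM. An antisense RNA gene, Gm17080, overlaps Slc29a1 by 2258 bases in the GENCODE M21 annotation, and 5.10% of its reads lay on the opposite strand.

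Trarg1 encodes a membrane protein of adipocytes and muscle that travels with GLUT4. Fetal control libraries had 20.5, 18.0 and 29.2 CPM and fetal fish oil libraries 54.1, 37.1 and 48.5 CPM. At weaning the values were 33.2, 17.2 and 16.1 CPM against 46.4, 89.5 and 54.5 CPM. Neither age showed overlap between the diets, and the fetal fish oil mean was 2.06 times the control mean. In adults the level was far higher and the diets overlapped, at 211, 263 and 262 CPM with control and 340, 262 and 279 CPM with fish oil.

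The fetal difference of Trarg1 was 1.05 ± 0.28 on the log2 scale in the fit of all 18 libraries and did not pass there (edgeR adjusted p = 0.282). It passed with DESeq2 on the same libraries and with edgeR on the 6 fetal libraries alone (1.05 ± 0.15, adjusted p = 0.00145). Leaving out each fetal library in turn kept it past the threshold of the fetal fit, with values of 0.90 to 1.28 and adjusted p from 0.000208 to 0.0120. With a term for the presence of Xist it was 1.05 ± 0.17 (adjusted p = 0.00420). Skeletal muscle markers, summed over 20 genes, also stood higher with fish oil in fetal tissue, at 1739 to 2909 CPM against 840 to 1384 CPM. In adults the same sum was 1818 to 11782 CPM with fish oil and 39.1 to 320 CPM with control, while Trarg1 overlapped between the diets. At weaning the sums overlapped, at 226 to 308 CPM against 44.6 to 288 CPM. The part of muscle RNA in the fetal value was not tested.

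Nabp1 had diet differences of opposite sign before birth and at weaning, with no overlap at either age. Fetal libraries had 98.6, 118 and 67.8 CPM with the control diet and 61.3, 51.4 and 50.4 CPM with fish oil. Weaned libraries had 56.8, 71.6 and 82.7 CPM with control and 126, 257 and 182 CPM with fish oil. Thus every fetal fish oil library was below the fetal controls, and every weaned fish oil library was above the weaned controls. Adult values of 105, 83.0 and 77.2 CPM against 65.6, 93.1 and 97.5 CPM overlapped, with a log2 fold change of -0.05 ± 0.24 (edgeR adjusted p = 0.998).

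The fetal difference of Nabp1 was -0.80 ± 0.24 on the log2 scale (edgeR adjusted p = 0.410 with all 18 libraries). In the fetal libraries alone it passed, at -0.80 ± 0.14 (adjusted p = 0.00568), and it kept passing as each library was left out, at -0.99 to -0.61 with adjusted p from 0.000121 to 0.0330. The term for Xist gave -0.77 ± 0.12 (adjusted p = 0.00283). The 2 fetal libraries with little Xist, control replicate 3 and fish oil replicate 2, had 67.8 and 51.4 CPM of Nabp1. Erythroid markers summed to 477 to 767 CPM in fetal fish oil and 296 to 344 CPM in fetal control libraries, without overlap. Of the 9 erythroid markers tested, 5 had a positive log2 fold change there and 4 a negative one (median 0.01). Their part in the result was not tested. The other SOSS subunits did not show the pattern of Nabp1: its close relative Nabp2 differed by -0.06 ± 0.16 and 0.08 ± 0.16 in the fetal and weaned diet comparisons, and the scaffold gene Ints3 by -0.01 ± 0.14 and -0.11 ± 0.13, none of which passed.

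Dvl2, a Dishevelled protein that passes the Wnt signal from Frizzled receptors to the beta-catenin destruction complex, had the lowest summed forward count of the 9, with 47 to 189 counts in a library. It stood at 8.91, 7.95 and 10.4 CPM in fetal control and 8.44, 6.72 and 6.71 CPM in fetal fish oil libraries, which overlap. At weaning it stood at 4.32, 5.47 and 4.09 CPM with control and 9.43, 14.8 and 7.36 CPM with fish oil, without overlap. Adult libraries had 5.37, 7.02 and 5.85 CPM against 5.71, 6.79 and 7.55 CPM. The fetal and adult log2 fold changes were -0.31 ± 0.22 and 0.13 ± 0.24, and neither passed (edgeR adjusted p = 0.913 and 0.987). Its relatives Dvl1 and Dvl3 differed by 0.01 ± 0.13 and 0.03 ± 0.17 with diet at weaning.

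The direction of Dvl2 depended on which column of counts was used. Over the 18 libraries Dvl2 had 1684 counts in the forward column, 1083 in the unstranded column and 24716 in the reverse column, so that 93.6% of its stranded reads lay on the opposite strand. For the other 8 genes that share was 0.753% (Klf10) to 6.62% (Depp1). In the GENCODE M21 annotation Dvl2 shares 2119 bases with Acadvl, a gene of mitochondrial fatty acid oxidation on the other strand. Acadvl itself had 506, 427 and 445 CPM in weaned control and 511, 602 and 542 CPM in weaned fish oil libraries. In the unstranded column the weaned difference of Dvl2 was 0.75 and the fetal difference 0.24, against 1.19 and -0.31 in the forward column. How much of the forward count of Dvl2 came from Acadvl was not tested.

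**Figure D1:**
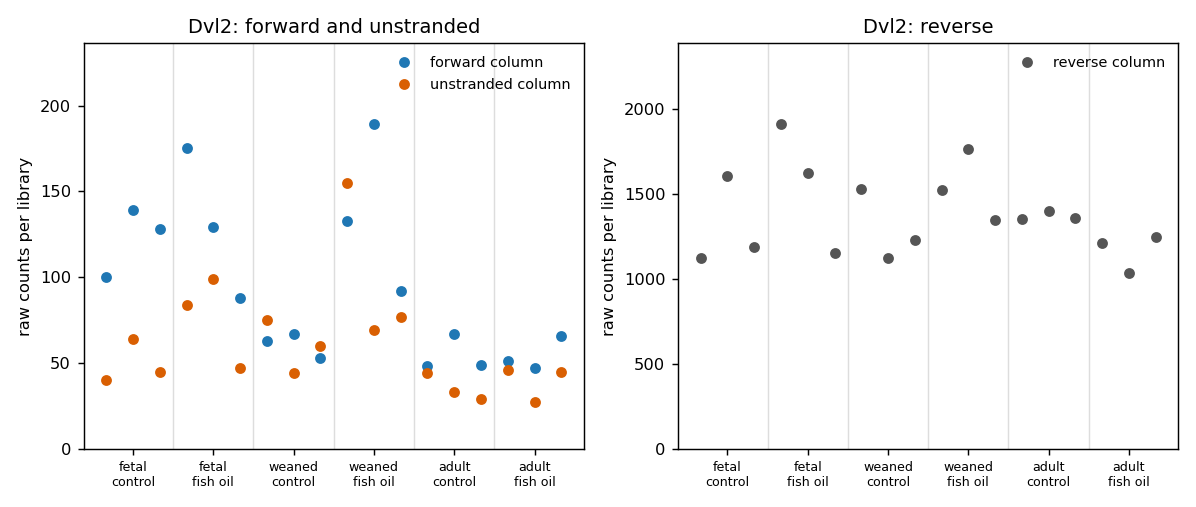
Raw counts of Dvl2 in each of the 18 libraries, 1 point per library in the order of the replicate numbers, with the forward and unstranded columns on the left and the reverse column on the right. The reverse counts of 1034 to 1908 exceed the forward counts of 47 to 189 in every library; the unstranded counts run from 27 to 155.

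Klf10, also called TIEG1, is a zinc finger repressor that the TGF-beta pathway induces. It stood at 17.5, 14.6 and 17.9 CPM in fetal control and 15.7, 13.6 and 12.3 CPM in fetal fish oil libraries. Weaned values were 12.4, 15.1 and 15.7 CPM against 25.6, 45.7 and 23.0 CPM, and adult values 24.0, 25.4 and 27.6 CPM against 31.0, 23.5 and 30.0 CPM. The weaned diets did not overlap. In fetuses and adults the diets overlapped, with log2 fold changes of -0.26 ± 0.21 and 0.14 ± 0.21 (edgeR adjusted p = 0.945 and 0.983). Its relative Klf11 differed by 0.22 ± 0.35 with diet at weaning.

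Hipk3, a kinase of the homeodomain-interacting family, had small spread within groups, and its weaned difference was the smallest of the 9 on the log2 scale (-0.62 ± 0.11). Weaned control libraries had 185, 224 and 182 CPM and weaned fish oil libraries 123, 135 and 127 CPM. Fetal libraries had 233, 230 and 251 CPM with control and 214, 226 and 252 CPM with fish oil. Adult libraries had 143, 143 and 169 CPM against 178, 148 and 165 CPM. The diets were apart at weaning and overlapped at the other ages, where the log2 fold changes were -0.04 ± 0.11 and 0.11 ± 0.11 (edgeR adjusted p = 0.992 and 0.960). From fetal to adult tissue Hipk1 fell, as Hipk3 did, by 1.21 ± 0.14 on the log2 scale, and Hipk2 rose by 1.69 ± 0.12 (edgeR adjusted p = 1.9e-06 and 5.5e-09). With diet at weaning Hipk1 stood at -0.52 ± 0.20, which did not pass (adjusted p = 0.278).

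Trim3, a TRIM-NHL ubiquitin ligase studied mainly in neurons, had the most even fetal values of the 9, at 10.4, 10.4 and 10.5 CPM with control and 10.2, 10.7 and 10.5 CPM with fish oil. At weaning the control libraries stood at 16.5, 16.7 and 14.4 CPM and the fish oil libraries at 9.85, 9.73 and 10.9 CPM. The weaned fish oil values overlapped the fetal ones, and all 3 weaned controls lay above every fetal library. Adults had 8.05, 10.9 and 9.19 CPM against 8.07, 8.95 and 8.12 CPM, which overlap. The fetal and adult log2 fold changes of 0.01 ± 0.12 and -0.17 ± 0.13 did not pass (edgeR adjusted p = 0.999 and 0.920).

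**Figure D2:**
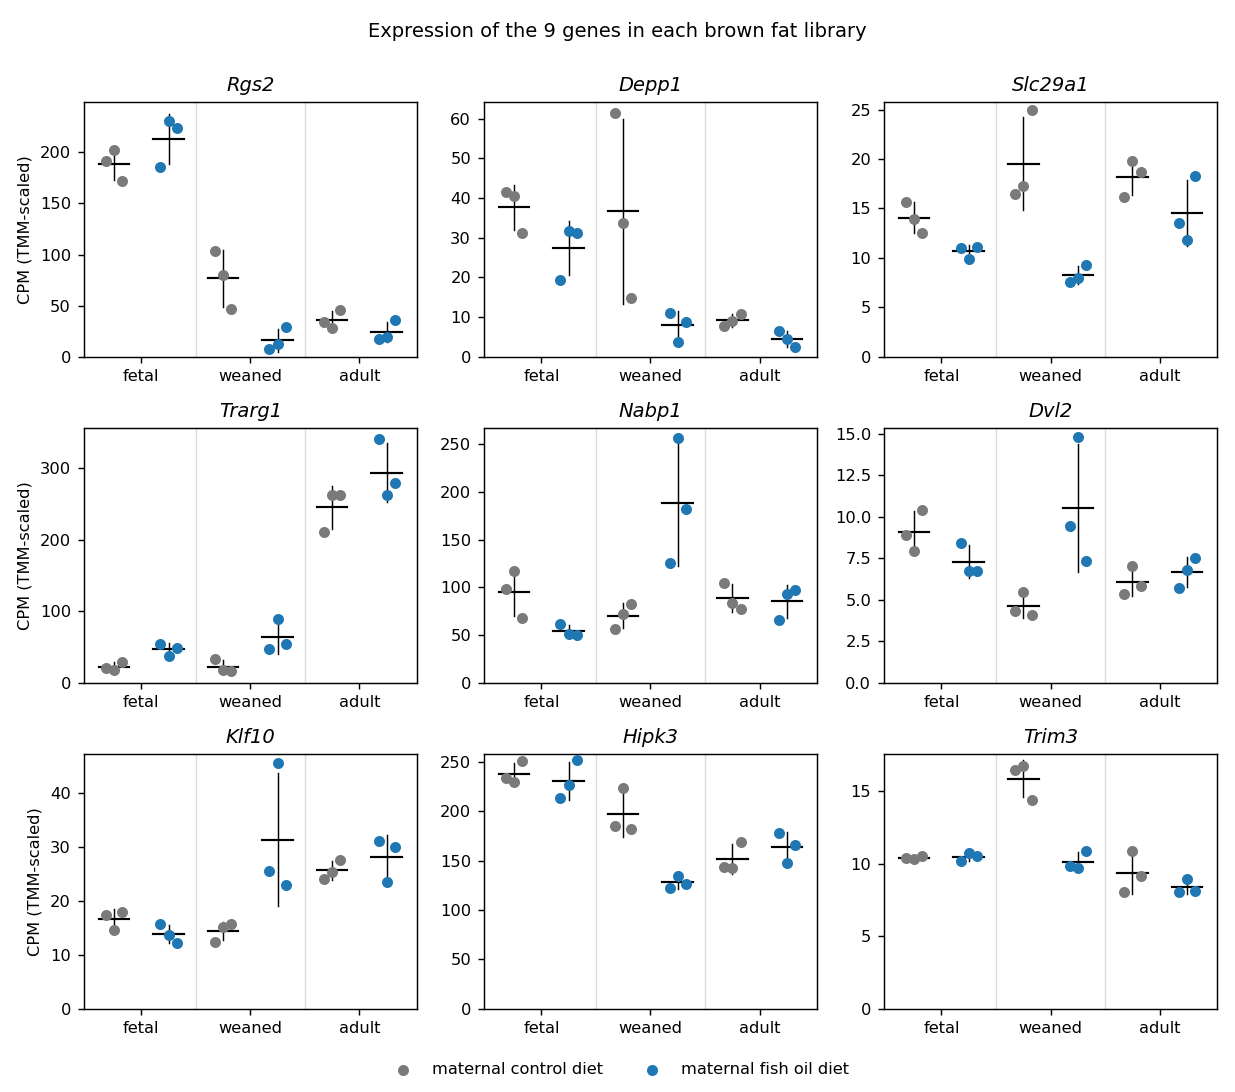
Expression of the 9 genes in CPM (y axes start at 0 and differ between panels), 1 point per library, with the mean as a bar and the SD over 3 libraries as a line, by age and maternal diet. Diets are apart at weaning for all 9 genes by choice, and in fetuses for Slc29a1, Trarg1 and Nabp1; in adults they are apart for Depp1.

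Which of the 9 genes passed at weaning varied with the libraries used. The differences kept their direction in each of the 6 fits that left out 1 weaned library. That follows from weaned diets that did not overlap for any of the 9, and is no sign of stability. Fish oil replicate 2 was the highest of its group for Trarg1, Nabp1, Dvl2 and Klf10 and the lowest for Depp1, and control replicate 1 was the highest of its group for Rgs2, Depp1 and Trarg1. All 9 genes passed the threshold by choice, as 0.265% of the 14366 genes tested did. Their weaned diets did not overlap, which holds for 10.2% of all genes. The 9 were chosen on these same libraries, so neither share is a comparison of them with other genes. Without fish oil replicate 2, 0 of the 9 passed with edgeR in the fit of all ages, without control replicate 2 it was 1 (Slc29a1), without control replicate 1 it was 2 (Slc29a1 and Trarg1) and without fish oil replicate 3 it was 4. Without control replicate 3 or fish oil replicate 1 all 9 passed, beside 371 and 1632 of all genes. The fits with 0, 1, 2 and 4 of the 9 called 2, 4, 5 and 8 genes in all. The size of the differences moved less than the calls for several genes: without fish oil replicate 2, Hipk3 stood at -0.66, Slc29a1 at -1.21 and Rgs2 at -2.09, beside -0.62, -1.24 and -2.25 with all libraries. Klf10 stood at 0.75 and Dvl2 at 0.86 without it, beside 1.12 and 1.19, and Trarg1 at 1.93 without control replicate 1, beside 1.51. All 9 had an unadjusted p under 0.05 in each of these fits, which follows from how they were chosen. With the weaned libraries fitted alone 0 of 9 passed with edgeR or limma-voom and 5 with DESeq2, which called 17 genes in all. Again all 9 had an unadjusted p under 0.05. Of the 9, Depp1 lay nearest to the threshold. The first named gene outside it was Bckdk, a kinase of branched-chain amino acid breakdown (edgeR adjusted p = 0.0501). The counts of the 9 that passed at weaning describe the rule that chose them and are no test of these genes. Summed smooth muscle and pericyte markers were 571 to 782 CPM in weaned control and 513 to 556 CPM in weaned fish oil libraries. Endothelial sums were 693 to 924 against 603 to 753 CPM and fibroblast sums 826 to 1305 against 637 to 1172 CPM, and all 12 endothelial and all 12 fibroblast markers tested had a negative log2 fold change (medians -0.33 and -0.38). Of the 20 skeletal muscle markers 19 had a positive one (median 1.34). The part of these cell types in the weaned values was not tested. In bulk tissue, fewer cells of a type and less RNA per cell cannot be told apart.

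Before birth, 0 of the 9 genes passed in the edgeR fit of all 18 libraries, where 0.0975% of genes passed. Of the 9, 3 had an unadjusted p under 0.05 in edgeR (Slc29a1, Trarg1 and Nabp1), as did 923 of the 14366 genes tested. With DESeq2 1 of the 9 passed (Trarg1), beside 68 of all genes, and with limma-voom 0, beside 15. Without the low-count filter edgeR called Trarg1 (1.09, adjusted p = 2.1e-10) and Nabp1 (-0.77, adjusted p = 5.1e-05). The spread between fetal libraries was smaller than that of the other ages, with a biological coefficient of variation of 8.98% against 26.8% in weaned and 19.6% in adult libraries. If fetal libraries were pools, which the labels do not say, that spread is between pools and not between animals. Fitted alone, the fetal libraries gave 604 genes of 13331 (4.53%), among them 2 of the 9: Trarg1, beside 1.9% of genes called higher, and Nabp1, beside 2.63% called lower. Diets did not overlap for 3 of the 9, against 21.9% of all genes. The fetal sums of brown adipocyte markers, given above, were lower with fish oil in the same libraries. Of the 15 markers, though, 6 had a positive log2 fold change and 9 a negative one (median -0.03), and 0 passed in the edgeR fit of all 18 libraries. Their part in these values was not tested. The fetal sign was that of weaning for 4 of the 9 genes: Trarg1 on the higher side and Depp1, Slc29a1 and Hipk3 on the lower.

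Among adults, 0 of the 9 passed with edgeR, DESeq2 or limma-voom, while 0.988% of all genes passed with edgeR, and 0 of the 9 passed with the adult libraries alone (0.754% of genes). Depp1 was the only member with an unadjusted p under 0.05 in edgeR, which 980 of the 14366 genes tested had. It was also the only one whose diets did not overlap, against 14.1% of all genes. Signs matched those at weaning for 7 of the 9 genes, with Nabp1 and Hipk3 as the exceptions, at log2 fold changes of -0.05 and 0.11. Among the matches, the values of Trarg1, Dvl2 and Klf10 were smaller than their SE, and those of Rgs2, Depp1, Slc29a1 and Trim3 larger. The share of matching signs over all genes was not taken, here or for fetuses, so these counts are a description. The log2 fold changes ran from -1.04 for Depp1 to 0.26 for Trarg1, with a median of -0.05 beside 0.01 for all genes tested. The difference between the adult and the fetal diet effect passed for 0 of the 9 genes in edgeR, DESeq2 and limma-voom (0.167% of all genes passed in edgeR). Without the low-count filter Rgs2 and Trarg1 passed in edgeR, at -0.80 and -0.84 (adjusted p = 0.0156 and 0.00535), beside 313 of all genes. In the filtered edgeR fit, Nabp1 alone of the 9 had an unadjusted p under 0.05 there, at 0.75 ± 0.34, beside 1010 of all genes tested. The value for Trarg1 was -0.79 ± 0.38.

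**Figure D3:**
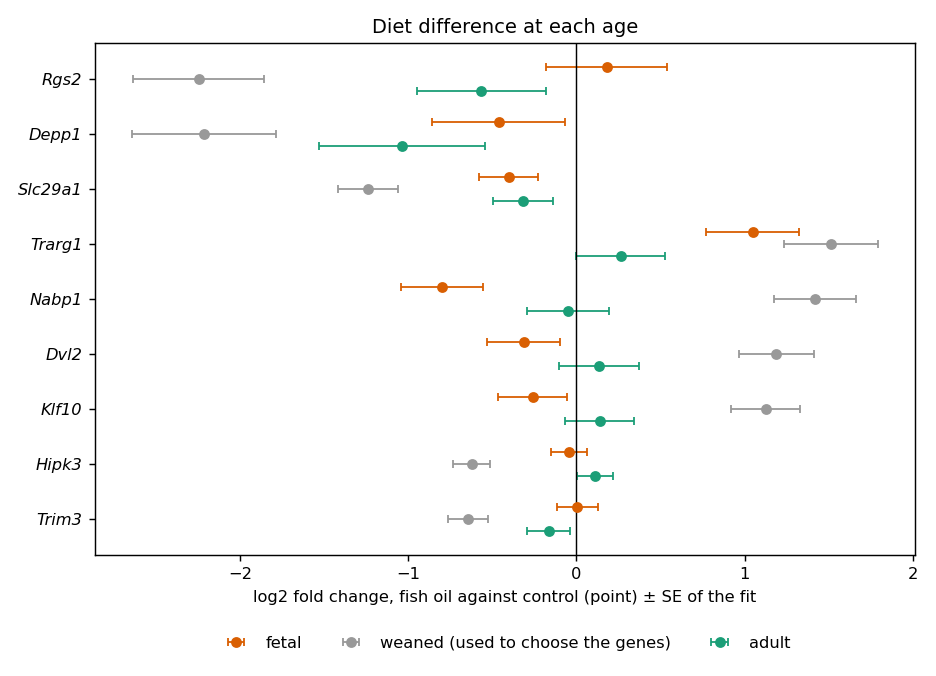
Log2 fold change of fish oil against control for each gene at each age, as the point and its SE in the fit of all 18 libraries; the weaned values chose the genes. The fetal points of Nabp1, Dvl2 and Klf10 lie below 0 where the weaned points lie above it, and the adult points lie between -1.04 and 0.26.

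Adult and fetal tissue, averaged over both diets, differed for 7 of the 9 genes in edgeR, beside 61.1% of all genes tested. For 5 of the 9 (Rgs2, Depp1, Hipk3, Trarg1 and Klf10) the 6 adult and 6 fetal libraries did not overlap, as for 42.1% of all genes. Adult animals had also eaten a high fat diet, so age and that diet cannot be told apart. Trarg1 rose 8.29-fold (log2 3.05 ± 0.20, adjusted p = 2.0e-09), and its 6 adult libraries, at 211 to 340 CPM, lay above every fetal and weaned library. Rgs2 fell 6.83-fold (-2.77 ± 0.28, adjusted p = 2.4e-07) and Depp1 fell 5.01-fold (-2.33 ± 0.32, adjusted p = 8.5e-06). Klf10 rose by 0.82 ± 0.15 and Slc29a1 by 0.41 ± 0.13 (-0.01 with library size alone as the scale), while Hipk3 fell by 0.57 ± 0.08 and Trim3 by 0.24 ± 0.09 on the log2 scale. Nabp1 and Dvl2 did not pass, at 0.28 ± 0.17 and -0.35 ± 0.16 (adjusted p = 0.170 and 0.0661). Dvl2 passed in edgeR with median-of-ratios scaling (-0.37, adjusted p = 0.0493), library size alone (-0.78, 0.000363), no low-count filter (-0.40, 0.0422), the 2 ages fitted alone (-0.36, 0.0142) and without adult control replicate 2 (-0.42, 0.0477), while the unstranded column put it at 0.16. The call for Trim3 was lost without fetal fish oil replicate 2, adult control replicate 1 or adult fish oil replicate 3, at -0.23, -0.20 and -0.23, and without the low-count filter (-0.29, adjusted p = 0.125). Scaling by library size alone shifted the median of all genes by -0.43.

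Weaned against fetal tissue, 6 of the 9 genes passed in edgeR, beside 52.1% of all genes. Rgs2 fell by 2.51 ± 0.27, Depp1 by 0.91 ± 0.29 and Hipk3 by 0.56 ± 0.08, and Nabp1 rose by 0.68 ± 0.17, Klf10 by 0.48 ± 0.15 and Trim3 by 0.28 ± 0.08. When library size alone set the scale, Nabp1 no longer passed, at 0.07 (adjusted p = 0.703), and Klf10 and Trim3 stood at -0.13 and -0.32. Trim3 also did not pass without the low-count filter, at 0.27 (adjusted p = 0.146). Those weaned means average over diets that stood apart by choice, and the diets did not all move alike. With control, mean Nabp1 fell from 94.6 to 70.4 CPM and Klf10 from 16.7 to 14.4. With fish oil they rose, from 54.4 to 188 and from 13.9 to 31.4 CPM. Trim3 rose with control only (10.4 to 15.9, fish oil 10.5 to 10.2). Depp1 fell mainly with fish oil (27.4 to 7.90, control 37.7 to 36.7). Rgs2 and Hipk3 fell in both diets. Adult against weaned tissue, 4 of the 9 passed in edgeR beside 31.1% of all genes. Trarg1 rose by 2.84 ± 0.20 and Slc29a1 by 0.36 ± 0.13, and Depp1 fell by 1.41 ± 0.32 and Trim3 by 0.52 ± 0.09. Mean Slc29a1 went from 19.5 to 18.2 CPM with control and from 8.26 to 14.6 CPM with fish oil. Trarg1, Depp1 and Trim3 moved the same way in both diets. The call for Slc29a1 was lost without the low-count filter, with the 2 ages fitted alone and in 8 of 12 fits that each left out 1 library, and held without weaned control replicate 3, weaned fish oil replicate 3, adult control replicate 1 or adult fish oil replicate 2. Trarg1 differed by 0.21 ± 0.19 between weaned and fetal tissue, and Rgs2 by -0.26 ± 0.27 between adult and weaned tissue, neither of which passed (adjusted p = 0.371 and 0.485). Rgs2 passed there in edgeR without the low-count filter (-0.30, adjusted p = 0.0332), as did Nabp1 (-0.44, adjusted p = 0.000218), beside 4797 of all genes. Without weaned fish oil replicate 1 Nabp1 passed at -0.52, and without weaned fish oil replicate 2 Klf10 passed at 0.52.

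**Figure D4:**
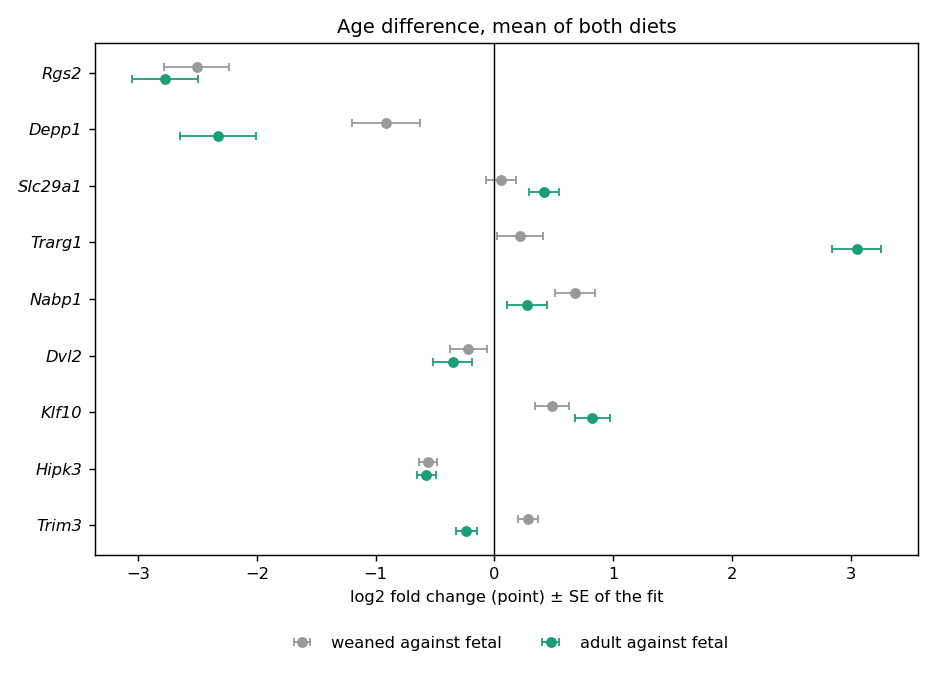
Log2 fold change of weaned and of adult against fetal tissue, averaged over both diets, as the point and its SE in the fit of all 18 libraries. Trarg1 reaches 3.05 in adults after 0.21 at weaning, and Rgs2 is already at -2.51 at weaning and stands at -2.77 in adults.

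The pathways around the 9 genes were read from 10 lists with 300 other genes, of which 266 were tested. In the fit of all 18 libraries 0 of them passed for diet in fetuses (edgeR; 32 had an unadjusted p under 0.05, 5 passed with DESeq2 and 0 with limma-voom) and 0 at weaning (55 unadjusted, 5 with DESeq2, 0 with limma-voom). Of all 14366 genes tested, 923 and 1915 had an unadjusted p under 0.05 in these comparisons, and 68 and 200 passed with DESeq2. With the fetal libraries alone, 5 of 258 were higher and 19 lower with fish oil, beside 1.9% and 2.63% of all genes in that fit. The list counts below are also to be read against those shares. The list of FOXO, fasting and glucocorticoid response genes, to which Depp1 belongs, held 3 higher and 6 lower of 27 tested. Foxo1, the insulin-restrained transcription factor, fell from 124 ± 1.77 to 61.2 ± 7.53 CPM (SD, n = 3; log2 -1.02 ± 0.08, adjusted p = 1.5e-05). The glucocorticoid-induced genes Klf9 and Tsc22d3 fell by 0.74 ± 0.10 and 0.69 ± 0.10, and the lipase inhibitor gene Angptl4 rose by 0.61 ± 0.08. Depp1 itself did not pass in the fetal fit (-0.47 ± 0.15, adjusted p = 0.102).

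Beside Trarg1, the list of insulin and GLUT4 genes held 1 higher and 2 lower of 31 in the fetal fit. Slc2a4, the gene of GLUT4, fell from 50.8 ± 2.79 to 29.1 ± 4.83 CPM with fish oil (log2 -0.82 ± 0.10, adjusted p = 0.000434), while Trarg1 was higher in the same libraries. At weaning Slc2a4 stood at 144 CPM with control and 201 CPM with fish oil, with an SE of 0.27 on a log2 difference of 0.48 that did not pass. The kinase gene Akt2 rose by 0.36 ± 0.07 in the fetal fit and the PI3-kinase subunit gene Pik3r1 fell by 0.34 ± 0.07. Of the nucleoside list 4 of 20 were lower, among them Gda and Xdh, which break down purines (-0.85 ± 0.11 and -0.47 ± 0.10). The HIPK list held 2 lower of 16, Hipk1 and Dyrk2 (-0.43 ± 0.08 and -0.41 ± 0.08). Of the Wnt list, Lrp6, a co-receptor upstream of Dvl2, rose by 0.55 ± 0.09, and in the SOSS list 0 of 17 passed. None of these fetal calls was made in the edgeR fit of all 18 libraries.

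In adults 2 genes of the lists passed for diet in the fit of all libraries, the ubiquitin ligases Trim55 and Trim54, both higher with fish oil (edgeR adjusted p = 0.0115 and 0.0277). Trim55 stood at 2.19 ± 2.10 CPM with fish oil and 0.0373 ± 0.0646 CPM with control, and Trim54 at 2.62 ± 1.58 and 0.0770 ± 0.0668 CPM (SD, n = 3); the control means are below the level of 3 counts, so no fold is given. Both are genes of striated muscle, and the muscle marker sums, given above with Trarg1, were higher in the same libraries; their part in these values was not tested. Trim3 in the same libraries differed by -0.17 ± 0.13. Between adult and fetal tissue, 85 of the 266 list genes were higher and 84 lower, near the 31.1% higher and 30% lower among all genes, which are also the background of the counts that follow. Of the G protein list 22 were higher and 6 lower of 39, opposite in majority to Rgs2: the beta-3 adrenergic receptor gene Adrb3 rose from 0.538 ± 0.17 to 44.4 ± 5.42 CPM (SD, n = 6), and Rgs5, a relative of Rgs2 that marks pericytes, rose from 41.0 ± 4.73 to 287 ± 27.6 CPM. The FOXO and glucocorticoid list fell like Depp1 in 17 of 27 genes and rose in 4, with Per1 at -2.39 ± 0.19 and Cited2 at -2.67 ± 0.19. The median log2 fold change of that list was -0.98, beside -0.01 for all genes tested.

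Other genes followed the 9 closely over the 18 libraries, by Pearson correlation of log2 CPM among 8724 genes. These values rest on differences between ages and on the weaned diet differences that chose the genes. They also share libraries, so they are a description. Depp1 was most like Ddit4, a stress-induced inhibitor of mTOR (r = 0.93, and 0.98 over the 12 fetal and adult libraries), then Ccdc71l (0.93). Trarg1 was most like Ube3b, the mitochondrial channel gene Vdac1 and Rhoq, a small GTPase known from GLUT4 traffic (0.97, 0.95 and 0.95). Rgs2 was nearest to Hnrnpr (0.93), Hipk3 to Ivns1abp (0.91), Trim3 to the nuclear receptor gene Nr2f2 (0.89), Nabp1 to Ripor2 (0.88) and Klf10 to Mapkapk3 (0.87). Dvl2 and Slc29a1 had the loosest neighbours, Cox5a and Msn, at 0.80 and 0.79. Over the 12 fetal and adult libraries these nearest pairs were lower for Trim3 (0.81), Nabp1 (0.79), Dvl2 (0.70) and Slc29a1 (0.76). They were as high or higher for Trarg1 (0.97), Rgs2 (0.93), Hipk3 (0.97) and Klf10 (0.93).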

How the data were processed

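RNA sequencing counts of 18 mouse brown fat libraries were used, 3 in each of 6 groups. Per the labels, RNA was taken with Trizol and libraries were made with an Illumina TruSeq kit. Per the submitters' processing notes, Bowtie 0.12.2 and STAR were used, and the notes name builds mm8 and mm9; the counting tool and annotation are not given in the sources used here. The authors deposited raw counts per Ensembl gene in 3 columns (unstranded, forward and reverse). The forward column, 98.94 to 99.55% of the unstranded total in each library, was used here. Symbols were matched for 52083 of 55416 genes.

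Genes were filtered with filterByExpr (14366 kept, 25.9%), scaled with TMM factors and tested under R 4.3.3 by the quasi-likelihood test of edgeR 4.0.16, with the 6 groups in 1 model. Benjamini-Hochberg adjustment covered all genes tested in a comparison, and an adjusted p under 0.05 counted as passing. Fits with DESeq2 1.42.0, limma-voom 3.58.1, other scalings and filters, the libraries of each age alone, a replicate block and each library left out were run beside it. CPM are per TMM-scaled library; 3 counts equal 0.145 to 0.433 CPM, for counting error only. Scripts were tested on simulated data. The members and lists were chosen with earlier results of these data known; the genes named are the 9 members, their close relatives, and list genes with the lowest adjusted p. Same-numbered libraries were not taken as pairs. Log2 likeness used a prior count of 2.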

Additional observations from a re-analysis of the deposited data

Results flagged for a closer look

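Nabp1 stood apart because every fetal fish oil library lay below the fetal controls (log2 fold change -0.80) while every weaned fish oil library lay above the weaned controls (1.42). The difference between these effects was not tested, since the weaned value was used to choose the gene.

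Reads on the strand opposite Dvl2, which the comparisons did not use, averaged 118 ± 17.6 CPM in weaned fish oil and 97.3 ± 6.95 CPM in weaned control libraries (SD, n = 3), and every fish oil library was above every control. In fetuses the means were 88.1 ± 3.72 CPM with fish oil and 96.1 ± 3.99 CPM with control, and in adults 143 ± 6.69 and 153 ± 8.00 CPM.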

How the results depend on the processing

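Of 1083 values of the 9 genes outside the weaned diet comparison under other settings, 1017 kept their direction and their side of the threshold, 27 came to pass, 16 ceased to pass and 23 reversed; the cause was not tested. The number of genes that passed for fetal diet (14) was 240 without the low-count filter, 68 with DESeq2, 604, 492 and 599 with fetal libraries alone (edgeR, DESeq2, limma-voom) and 522 with a term for Xist. For weaned diet (38) it was 63 with library size alone, 770 without the filter, 200 with DESeq2, 21 with limma-voom, and 0, 17 and 0 with weaned libraries alone (643, 599 and 555 at an unadjusted p under 0.05). For adult diet (142) it was 546 without the filter, 17 with limma-voom, 89 with adult libraries alone and 0 with limma-voom on them (989 unadjusted). For the adult minus fetal diet effect (24) it was 313, 85, 3 and 186 without the filter, with DESeq2, with limma-voom and with both ages alone. The terms for Xist and the tools other than edgeR on single ages were chosen after seeing the data.

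With the replicate block the numbers were 1 for fetal diet, 13 for weaned diet and 1 for the adult minus fetal effect. Of the 9 genes 3 passed for weaned diet, the comparison that chose them (Slc29a1, Nabp1 and Dvl2). No other call of the 9 changed. Of 9 same-numbered pairs 2 had a correlation over 0.1 (range -0.49 to 0.29), which does not settle whether the numbers pair the samples. In fetuses the same-numbered pairs stood at 0.05 to 0.10 and the differently numbered ones at -0.07 to -0.01.

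Leaving out 1 library at a time gave 2 to 10 genes for fetal, 2 to 1632 for weaned and 89 to 197 for adult diet, 2 to 104 for the adult minus fetal effect, 8229 to 8808 for adult against fetal, 6838 to 7893 for weaned against fetal and 3795 to 4689 for adult against weaned. The extremes for weaned diet came without fish oil replicate 2 and without fish oil replicate 1. Log2 values that changed sign this way ran from -0.11 to 0.01 (Hipk3) and -0.01 to 0.03 (Trim3) for fetal diet, -0.16 to 0.10 (Nabp1) for adult diet, -0.12 to 0.20 (Slc29a1) for the adult minus fetal effect, -0.06 to 0.10 (Slc29a1) for weaned against fetal, and -0.47 to 0.08 (Rgs2), -0.24 to 0.02 (Dvl2) and -0.07 to 0.03 (Hipk3) for adult against weaned.

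Library size alone shifted the median of all genes by -0.43, -0.60 and 0.17 for adult against fetal, weaned against fetal and adult against weaned. It reversed Hipk3 for fetal diet (0.01), Slc29a1 (-0.01) and Nabp1 (-0.16) for adult against fetal, Slc29a1 (-0.55), Trarg1 (-0.40), Klf10 (-0.13) and Trim3 (-0.32) for weaned against fetal, and Dvl2 (0.05) and Hipk3 (0.16) for adult against weaned. The unstranded column reversed Dvl2 for fetal diet (0.24), adult against fetal (0.16) and weaned against fetal (0.56, adjusted p = 0.0136). Depth limits the low genes most: Depp1 had 22 counts and Dvl2 47 in their lowest libraries.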
